A study of Mus musculus with 52 samples.

Results

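Satellite cells, the stem cells of skeletal muscle, and the factors that turn them into muscle fibres were followed through 10 genes: Pax7, Pax3, Myf5, Myf6, Myod1, Myog, Cdh15, Calcr, Des and Mymk. The members were the rows of the count table whose Ensembl identifiers map to these symbols, and all 10 were found among 55487 genes. All 10 passed the filter on low counts, which left 16668 genes for testing. RNA came from gastrocnemius, a calf muscle, of aged male C57BL/6 mice of 22 to 24 months and was sequenced as total RNA after removal of ribosomal RNA. The 52 libraries fell into 13 groups of 4.

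Ambulatory mice on plain drinking water are called AMB_W. The other 12 groups were unloaded (HU, hindlimb unloading, in which the hind legs bear no weight), or unloaded and then reloaded for 7 d (RL7) or 14 d (RL14). At each of these times the drinking water held nothing (W), metformin (M), leucine (L) or both (ML). Metformin, given to people with diabetes, activates the energy sensor AMPK, while leucine activates mTOR, which drives the making of protein. No ambulatory group received metformin or leucine, and all mice were aged males, so effects of age and sex were not compared here. How long the unloading lasted is not in the labels used here. The title of the study names satellite cell abundance as an outcome of the combined drink. A library is named by its group and the replicate number of its title, such as HU_W 2.

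A satellite cell lies between a fibre and its basement membrane and is kept as a stem cell by Pax7, with Pax3 as a related factor in some muscles. Once activated, it switches on the myogenic regulatory factors, first Myf5 and Myod1 in dividing myoblasts and then Myog as they differentiate. Mymk, a membrane protein, lets myoblasts fuse with fibres. Myf6 is the family member that adult fibres themselves express most, and Des encodes desmin, the intermediate filament that ties myofibrils together. Cdh15 is M-cadherin, an adhesion protein at the contact between satellite cell and fibre, and Calcr is the calcitonin receptor, which helps to keep satellite cells at rest.

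All 10 are protein-coding genes, given here at their GENCODE vM21 positions on GRCm38. Pax7 (ENSMUSG00000028736) lies at chr4:139737062-139833528 on the minus strand and Pax3 (ENSMUSG00000004872) at chr1:78101267-78197134 on the minus strand. Myf5 (ENSMUSG00000000435) at chr10:107482908-107486134 and Myf6 (ENSMUSG00000035923) at chr10:107492853-107494737 are neighbours on the minus strand. Myod1 (ENSMUSG00000009471) lies at chr7:46376474-46379099, Myog (ENSMUSG00000026459) at chr1:134289989-134292548 and Cdh15 (ENSMUSG00000031962) at chr8:122847966-122867397, all on the plus strand. Calcr (ENSMUSG00000023964) lies at chr6:3685680-3764714 and Mymk (ENSMUSG00000009214) at chr2:27061636-27072179, both on the minus strand. Des (ENSMUSG00000026208) at chr1:75360329-75368579 on the plus strand shares 220 exonic bases with the opposite-strand gene Gm15179. Without a stated strand setting for the counting, the Des counts may hold reads of that gene.

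Myogenic regulatory factors bind the E-box, whose letters are CANNTG. Des and Myog were read for it because Des is a textbook target of these factors and Myog is both a target and a member of their family. The 250 bases before their RefSeq start sites (GRCm38.p6) are given 5′ to 3′ on the plus strand, with each E-box in capitals. The Des window is chr1:75360042-75360291 and the Myog window is chr1:134289754-134290003, of which the last 15 bases lie in an exon of GENCODE.
Des: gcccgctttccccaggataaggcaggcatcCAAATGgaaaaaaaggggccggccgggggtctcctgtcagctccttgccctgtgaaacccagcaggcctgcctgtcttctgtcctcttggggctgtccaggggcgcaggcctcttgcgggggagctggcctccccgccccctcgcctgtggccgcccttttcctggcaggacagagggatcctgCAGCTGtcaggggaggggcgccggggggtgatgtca
Myog: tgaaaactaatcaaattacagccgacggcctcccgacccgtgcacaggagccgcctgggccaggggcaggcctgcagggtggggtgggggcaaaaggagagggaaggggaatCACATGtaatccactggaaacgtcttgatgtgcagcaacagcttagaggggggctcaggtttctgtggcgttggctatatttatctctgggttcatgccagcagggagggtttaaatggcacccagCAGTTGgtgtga
The Des window holds CAAATG at 220 bases and CAGCTG at 36 bases before the start, and the Myog window holds CACATG at 138 and CAGTTG at 12 bases before it. The E-box reads the same on both strands, so each match counts for both. Of all 32851 RefSeq windows of this length, 66.2% hold at least 1 CANNTG and 13% hold CAGCTG, which is 1 form of it. Windows were at hand for 6 of the 10 members, and those of Pax7 and Myf5 held 0 matches, that of Cdh15 3. These matches describe letters, not binding.

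Levels are given as CPM, that is counts scaled to a common library size with a TMM factor, with the SD between the 4 libraries of a group. Totals ran from 15605044 to 32492548 counts. Per kilobase of exon, mean levels over the 52 libraries ran from 445 CPM for Des and 45.3 CPM for Myf6 down to 4.61 CPM for Myod1, 3.14 CPM for Cdh15 and 1.29 CPM for Myog. Myf5 followed with 0.462 CPM per kilobase, Pax7 with 0.321, Mymk with 0.119, Calcr with 0.0823 and Pax3 with 0.0445. Des and Myf6, which mature fibres express, were the most abundant, and Calcr and Pax3 the scarcest on this scale. In reads Mymk was the scarcest, with 193 over all libraries against 278 for Pax3 and 330 for Calcr. Depth limits the last 3: Pax3 had 0 to 22 reads per library, Calcr 0 to 17 and Mymk 0 to 25, and 16 libraries held 0 Mymk reads. In whole muscle, fewer cells of a type and less RNA per cell cannot be told apart.

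Several libraries or groups stood apart before any test. RL14_ML 1 had the highest level of all 52 libraries for Pax7 (4.12 CPM), Myod1 (22.3 CPM) and Des (3011 CPM). A gene of 5.8S ribosomal RNA (n-R5-8s1), which the library preparation should deplete, differed in level by group. It lay between 0.294 and 0.998 CPM in RL14_W and between 0.379 and 3.28 CPM in RL7_M, RL7_L and RL7_ML, and between 9.15 and 33 CPM in the 3 treated RL14 groups. It lay between 7.64 and 14.5 CPM in AMB_W and between 2.07 and 32.8 CPM in the HU groups. In 12 libraries of 7 groups Alb, which liver makes, lay above 16 CPM. These were 2 of 4 in HU_W, HU_ML, RL7_M, RL7_L and RL14_L and 1 of 4 in HU_L and RL14_W. Fits without them therefore rest on fewer libraries in those groups. The mitochondrial share of counts also differed by group: 8.31% to 11.7% in RL14_W against 17.5% to 27.4% in RL14_M, and 13.2% to 15.4% in RL7_W against 5.53% to 9.22% in RL7_M. Muscle fibre markers summed to between 225264 and 348920 CPM in every library, so that each held skeletal muscle RNA. Whether that muscle was gastrocnemius was not tested.

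**Figure D1:**
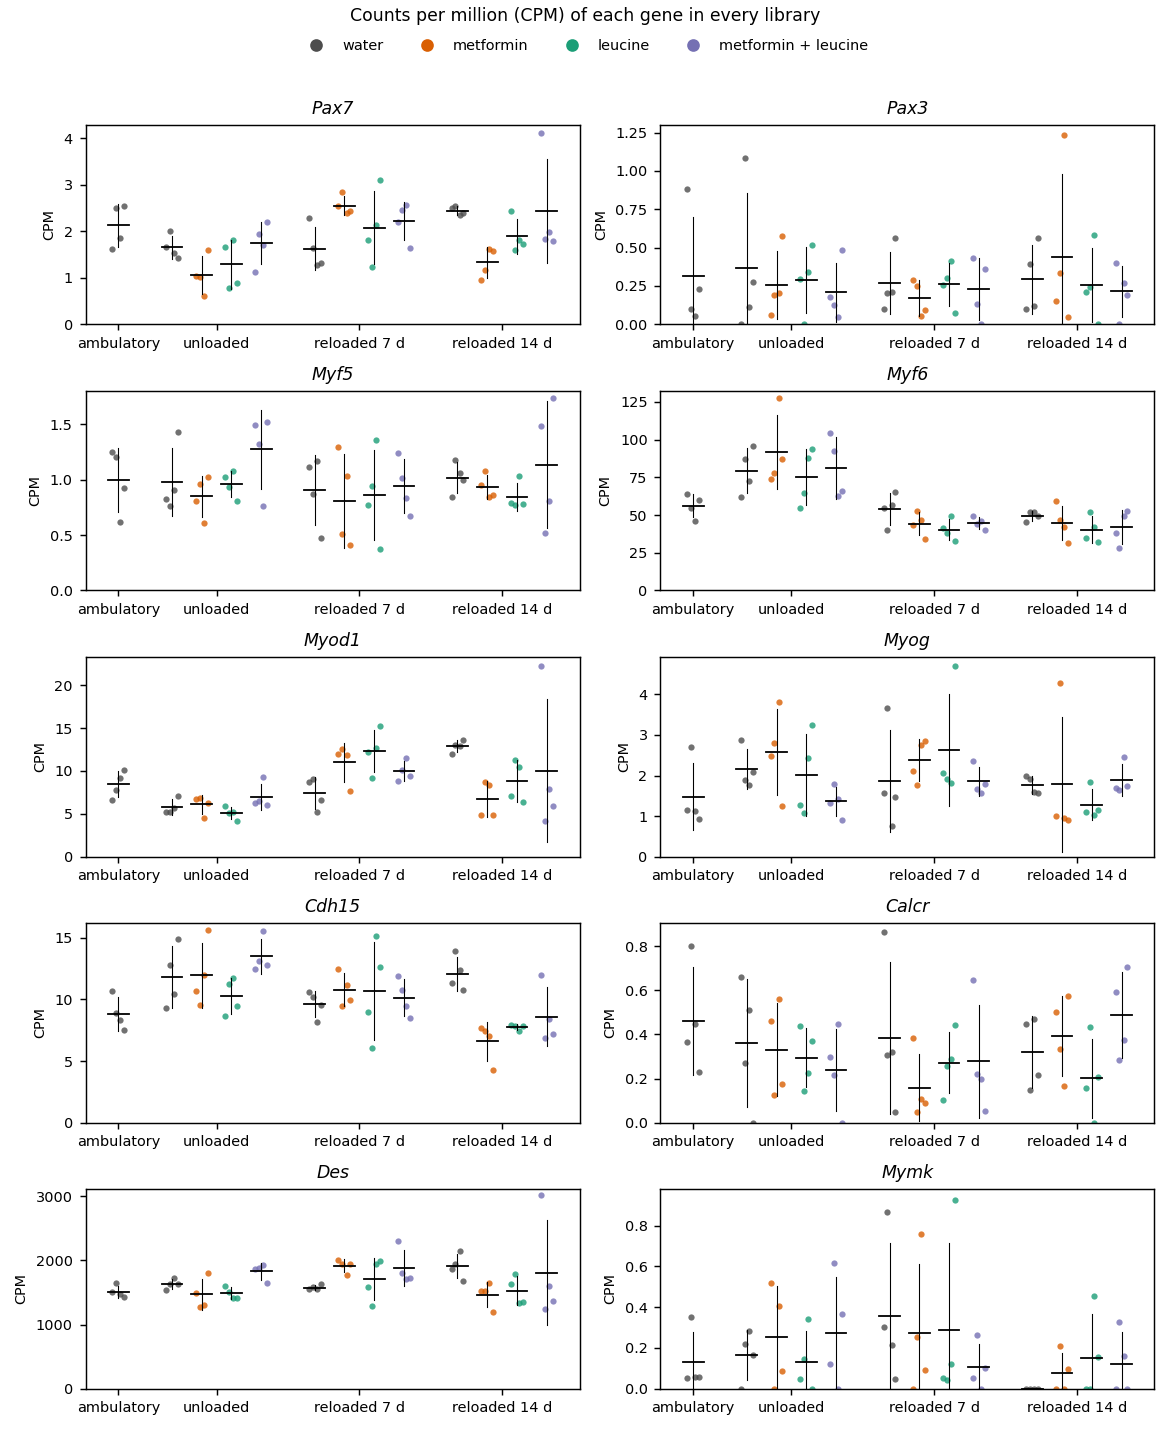
Level of each gene in CPM (y axis, linear, from 0) in each of the 52 libraries, by time (x axis) and drink (colour); bars are group means and thin lines are ± 1 SD (n = 4), drawn down to 0 at the lowest. Myf6 is higher in most unloaded libraries than elsewhere, Myod1 and Pax7 are tight and high in RL14_W, and RL14_ML 1 stands alone at 22.3 CPM for Myod1.

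Unloaded muscle was compared with ambulatory muscle. Averaged over the 4 drinks, the unloaded groups differed from AMB_W in 1 of the 10 members (adjusted p under 0.05 in edgeR's quasi-likelihood test), against 6.08% of all genes tested. AMB_W had water alone, so unloading and the drinks cannot be told apart in this average. Myf6 was 64, 54.8, 46.2 and 59.9 CPM in the AMB_W libraries. In the 16 unloaded libraries it ran from 54.6 to 128 CPM with a median of 82.3 CPM. The ranges overlapped between 54.6 and 64 CPM. Myf6 rose by 0.54 ± 0.16 (log2, SE), a 1.45-fold difference (edgeR adjusted p = 0.039). Leaving out any 1 of 11 of the 20 libraries, among them each AMB_W library, ended this call (adjusted p up to 0.179). The call also ended without the 12 libraries high in Alb, while the value stayed at 0.54 (adjusted p = 0.0832). That step took out 2 libraries of HU_W, 1 of HU_L and 2 of HU_ML, so fewer were compared.

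For 3 further members the interval of the difference left out 0 although the adjusted p did not pass. Pax7 averaged 2.13 ± 0.466 CPM in AMB_W and 1.44 ± 0.470 CPM (n = 16) in the unloaded libraries, a log2 difference of -0.58 (95% interval -1.02 to -0.14, edgeR adjusted p = 0.109). Myod1 averaged 8.44 ± 1.51 and 5.99 ± 1.22 CPM, a log2 difference of -0.50 (-0.95 to -0.05, adjusted p = 0.197). Cdh15 averaged 8.84 ± 1.37 and 11.9 ± 2.20 CPM, a log2 difference of 0.42 (0.10 to 0.74, adjusted p = 0.109). With the limma voom fit and quality weights, 4 members passed, namely these 3 and Myf6, against 15.6% of all genes. Myf5, Myog, Des, Pax3, Calcr and Mymk had intervals that held 0. On water alone (HU_W against AMB_W) edgeR called 0 of 10 members, against 2.78% of all genes. Myf6 and Cdh15 were among the 2277 of 16668 genes with an unadjusted p under 0.05. Limma voom called 1 of these water differences, that of Myf6, against 8.17% of all genes.

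In the same average over the 4 drinks against AMB_W, 1 of 20 other satellite cell genes rose and 1 fell, beside 6.08% of all genes. Sdc4, a cell surface proteoglycan, went from 13.4 to 26.2 CPM (log2 0.96, edgeR adjusted p = 0.000101). Six4, a homeobox factor upstream of the myogenic genes, went from 47.2 to 33 CPM (log2 -0.52, edgeR adjusted p = 0.000756). The list's median log2 difference was 0.06, against -0.01 for all genes. EdgeR called 0 of 12 Notch pathway genes, 0 of 14 partners and inhibitors of the myogenic factors and 0 of 14 differentiation genes, of which 2, 0 and 4 had an unadjusted p under 0.05. Of all 16668 genes 3128 had such a p. Among 12 genes of denervation and the neuromuscular junction, Chrnb1, the beta subunit of the acetylcholine receptor, rose from 30.7 to 46.1 CPM (log2 0.58, adjusted p = 0.0486). Of 13 growth signals tested, Fgf6, a muscle growth factor, fell from 9.56 to 5.57 CPM (log2 -0.80, adjusted p = 0.00524), while Igf1r, the IGF1 receptor, rose from 37.4 to 47.6 CPM and Bmp4 from 2.58 to 3.76 CPM. Of 10 proliferation genes tested 1 fell, Aurka, a mitotic kinase (6.45 to 2.69 CPM, log2 -1.27, adjusted p = 1.12e-05). Of 10 fibroblast markers 2 fell, the collagen genes Col1a1 and Col3a1, and the markers summed to between 528 and 670 CPM in AMB_W and between 340 and 615 CPM in HU. The part of fibroblasts in the values of the members was not tested.

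Return of weight for 7 d was set against unloading over the 4 drinks, 16 libraries against 16. It changed 3 of the 10 members, beside 52.7% of all genes, so that the members' share was below the background. Pax7 ran from 0.610 to 2.19 CPM with a median of 1.56 in HU and from 1.24 to 3.11 CPM with a median of 2.25 in RL7. As the mean of the 4 drinks, Pax7 rose by 0.56 ± 0.14, or 1.47-fold (edgeR adjusted p = 0.00104). On water its group mean did not rise, at 1.66 ± 0.252 CPM in HU_W and 1.63 ± 0.466 CPM in RL7_W. The mean went from 1.07 to 2.55 CPM under M, 1.29 to 2.07 CPM under L and 1.74 to 2.22 CPM under ML. Myod1 ran from 4.13 to 9.28 CPM with a median of 5.94 and from 5.21 to 15.2 CPM with a median of 9.75. Myod1 rose by 0.75 ± 0.14, or 1.68-fold (adjusted p = 3.49e-05). The ranges of both genes overlapped between HU and RL7.

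Myf6 took the other direction. Its libraries ran from 54.6 to 128 CPM in HU and from 32.7 to 65.6 CPM with a median of 45.1 in RL7. The ranges overlapped between 54.6 and 65.6 CPM, the latter in RL7_W 4. Myf6 fell by 0.84 on the log2 scale (SE 0.10), or 1.79-fold, with an edgeR adjusted p of 5.43e-09. Cdh15 missed the threshold at a log2 difference of -0.20 (-0.40 to -0.01, adjusted p = 0.0732), and Des did so at 0.14 (-0.02 to 0.31, adjusted p = 0.126). Limma voom called both, which made 5 members, beside 56.8% of all genes.

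Libraries of these 2 times also differed in 5.8S ribosomal RNA, which was 2.07 to 32.8 CPM in HU and 0.379 to 7.39 CPM in RL7. With that level as a covariate the values were 0.23 for Pax7 (adjusted p = 0.752), 0.17 for Myod1 (adjusted p = 0.822) and -0.63 for Myf6 (adjusted p = 0.104), and 0 members passed. The ribosomal RNA level and the return of weight cannot be fully told apart between HU and RL7.

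After 14 d of reloading, 4 of the 10 members differed from unloading over the 4 drinks, against 29.7% of all genes. In RL14 Pax7 ran from 0.952 to 4.12 CPM with a median of 1.82, and it was higher than in HU by 0.47 ± 0.14, or 1.38-fold (adjusted p = 0.0111). Myod1 ran from 4.10 to 22.3 CPM with a median of 8.56 and rose by 0.65 ± 0.14, or 1.57-fold (adjusted p = 0.000589). Both groups of 16 overlapped for these genes. Without RL14_ML 1 the rise was 0.37 for Pax7 (adjusted p = 0.0342) and 0.46 for Myod1 (adjusted p = 0.00104).

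Averaged over the 4 drinks, Myf6 and Cdh15 fell over the same 14 d. Myf6 ran from 28.3 to 59.1 CPM with a median of 45.9 and fell by 0.89 (SE 0.10), or 1.85-fold (edgeR adjusted p = 3.19e-09). Cdh15 ran from 8.66 to 15.6 CPM with a median of 11.9 in HU and from 4.25 to 13.9 CPM with a median of 7.86 in RL14, a fall of 0.47 (SE 0.10), or 1.39-fold (adjusted p = 0.00024). On water its group mean did not fall, at 11.8 ± 2.51 CPM in HU_W and 12.1 ± 1.39 CPM in RL14_W. The Cdh15 mean went from 12 to 6.61 CPM under M, 10.3 to 7.77 CPM under L and 13.5 to 8.61 CPM under ML. All 4 calls at 14 d were kept without any 1 library. With the 5.8S covariate the values were 0.45 for Pax7, 0.60 for Myod1, -0.87 for Myf6 and -0.48 for Cdh15 (highest adjusted p = 0.0148). Group means of 5.8S were 0.718 CPM in RL14_W and 18.4 to 24.4 CPM in the treated RL14 groups, against 4.76 to 19.8 CPM in HU. The RL14 means thus lay on both sides of the HU means, and such a covariate can move this average little. The part of 5.8S in these 4 calls was therefore not tested by it.

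Between 7 and 14 d of reloading edgeR called 0 of 10 members over the 4 drinks, against 13.5% of all genes. Cdh15 and Mymk were among the 4957 of 16668 genes with an unadjusted p under 0.05. Limma voom called Myod1 and Cdh15, beside 28.5% of all genes. Cdh15 stood at -0.27 (-0.46 to -0.07, edgeR adjusted p = 0.0566), and Mymk had an adjusted p of 0.0549. Leaving out any 1 of 10 of the 32 libraries gave at least 1 call, and without RL14_ML 1 there were 4: Myod1 at -0.27 (adjusted p = 0.0443), Cdh15 at -0.31 (adjusted p = 0.00997), Des at -0.16 (adjusted p = 0.0404) and Mymk (adjusted p = 0.0422). The share called of all genes was then 30.5%. RL14_ML 1 had been singled out for its high Pax7, Myod1 and Des, so its removal was bound to lower the RL14 means of those genes.

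**Figure D2:**
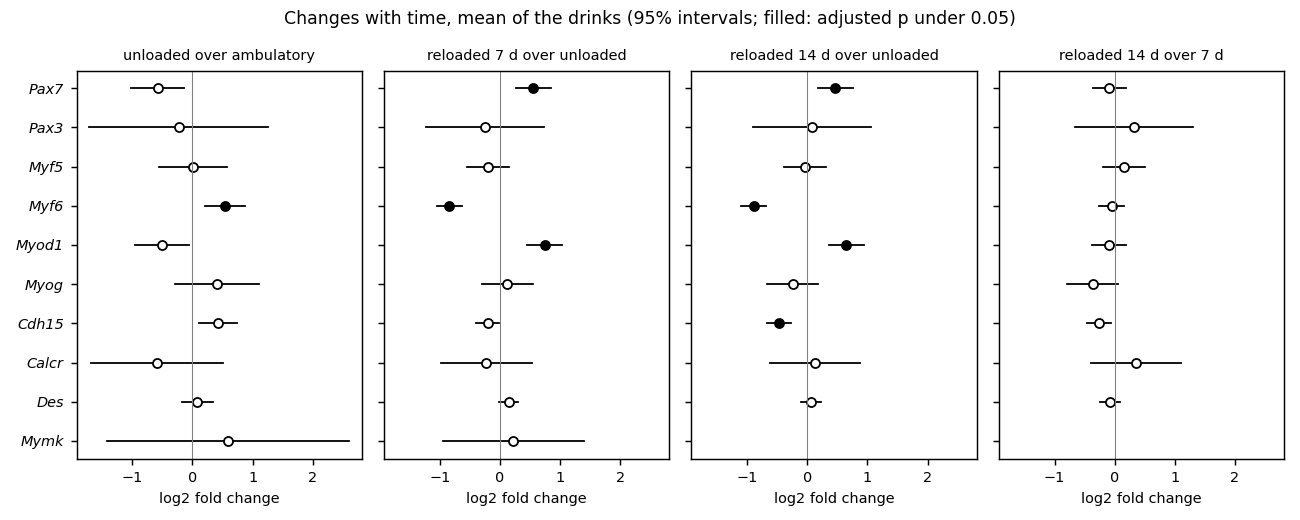
Log2 fold change (x axis) of each gene (y axis) between times, as the mean of the 4 drinks (water alone for AMB_W), with 95% intervals. Filled points have an adjusted p under 0.05, and Mymk is left out of the panels with RL14 because RL14_W held 0 reads. Pax7 and Myod1 lie right of 0 and Myf6 left of 0 at 7 and at 14 d against unloading, Cdh15 is filled only at 14 d, and 0 points are filled between 7 and 14 d.

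On water alone 14 d of reloading changed 2 of 10 members against HU_W, beside 9.72% of all genes. Myod1 was 5.18, 5.15, 5.72 and 7.10 CPM in HU_W and 12, 13, 12.9 and 13.7 CPM in RL14_W. The groups did not overlap, and Myod1 rose by 1.16 ± 0.29, or 2.23-fold (edgeR adjusted p = 0.00948). Myf6 was 62, 87.1, 72.7 and 95.5 CPM in HU_W and 45.1, 52, 52.2 and 49.3 CPM in RL14_W. Each RL14_W library lay below each HU_W library, a fall of 0.68 (SE 0.20), or 1.6-fold (adjusted p = 0.0288).

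Pax7 was 1.65, 2.01, 1.53 and 1.43 CPM in HU_W and 2.49, 2.54, 2.35 and 2.39 CPM in RL14_W. Its groups did not overlap either, yet the log2 difference of 0.56 did not pass (95% interval -0.00 to 1.12, adjusted p = 0.187). The Myf6 call ended without HU_W 2, HU_W 4, RL14_W 1 or RL14_W 3 (adjusted p up to 0.0963), and the Myod1 call held without any 1 library. 5.8S ribosomal RNA was 7.99 to 13.8 CPM in HU_W and at most 0.998 CPM in RL14_W, and the mitochondrial share of counts was 12.6% to 17.96% and 8.31% to 11.7%. The part of the latter was not tested. With the ribosomal RNA level as a covariate the values were 0.35 for Myod1 and -0.39 for Myf6 (both adjusted p = 0.999), and without the 12 libraries high in Alb they were 0.98 and -0.76 (adjusted p = 0.163 and 0.0964). The ribosomal RNA level and the time of reloading cannot be told apart between these 2 groups.

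The remaining water comparisons changed 0 of 10 members in edgeR. These were RL7_W against HU_W (4.88% of all genes changed), RL14_W against RL7_W (0.036%), RL7_W against AMB_W (0%) and RL14_W against AMB_W (0.174%), in which 1, 3, 0 and 4 members had an unadjusted p under 0.05. Of all 16668 genes 3332, 1905, 1341 and 2990 had such a p, in the same order. In RL14_W against AMB_W, Myod1 stood at 12.9 ± 0.690 against 8.44 ± 1.51 CPM, Cdh15 at 12.1 ± 1.39 against 8.84 ± 1.37 CPM, and Des at 1910.4 ± 191 against 1514 ± 92.9 CPM. Their groups did not overlap, for Cdh15 only just (lowest RL14_W library 10.72 CPM, highest AMB_W library 10.71 CPM). How many of all genes separate in this way was not counted. Mymk was at 0 in RL14_W. Limma voom called Myod1, Cdh15 and Des (adjusted p from 0.00389 to 0.0309), beside 17.8% of all genes, and edgeR 0 of them (adjusted p from 0.217 to 0.261). The 2 tools also differed for Myf6 in RL7_W against HU_W, where the log2 difference of -0.55 had an adjusted p of 0.103 in edgeR and 0.0203 in limma voom, which called 16.5% of all genes there. For RL14_W against RL7_W limma voom called Myod1 and Des, beside 7.94% of all genes.

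Regulators of the members were read at the same times. The counts of called list genes at 7 d against unloading stand beside 52.7% of all genes and those at 14 d beside 29.7%, and with 5.8S ribosomal RNA as a covariate the genes called at 7 d went from 8788 to 474. Over the 4 drinks at 7 d, 8 of 12 Notch pathway genes rose and 1 fell, with a median of 0.28 against 0.05 for all genes. Notch signalling keeps satellite cells quiescent, and Heyl, one of its target genes, went from 4.20 to 7.46 CPM (log2 0.83, adjusted p = 5.63e-09). Notch3, a receptor of satellite cells and of vessel walls, went from 14 to 23.3 CPM. At 14 d 6 Notch genes were up and 0 down, Heyl again by 0.82.

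Of 14 tested partners and inhibitors of the myogenic factors, 4 rose and 5 fell at 7 d, a share near that of all genes (52.7%). Tcf3, which encodes the E proteins that pair with the myogenic factors on E-boxes, rose from 5.60 to 9.75 CPM (log2 0.80, adjusted p = 3.46e-09), and Snai1, a repressor that competes for E-boxes, from 0.321 to 0.682 CPM. Mef2c and Mef2a, co-activators of the myogenic factors, fell, Mef2c from 1162 to 809 CPM (log2 -0.52, adjusted p = 2.91e-07). On water alone at 14 d Tcf3 also rose, from 5.26 to 10.5 CPM (log2 1.00, adjusted p = 0.000597).

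Of 14 differentiation and fusion genes tested, 5 rose and 4 fell at 7 d, again near the 52.7% of all genes. Bin1, a membrane-bending protein of the T tubules, rose from 276 to 382 CPM (log2 0.46), and Mybph, a myosin-binding protein, from 36.7 to 116 CPM (log2 1.65). Tmem182, an inhibitor of myoblast fusion, fell from 257 to 198 CPM and Igfn1, a sarcomere protein, from 61 to 16.5 CPM (log2 -1.93, adjusted p = 4.76e-05).

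Of 12 denervation and junction genes, 2 rose and 5 fell at 7 d and 1 rose and 6 fell at 14 d, with medians of -0.36 and -0.44, where 52.7% and 29.7% of all genes were called. Chrnb1 fell from 46.1 to 26.4 CPM at 7 d and to 22.3 CPM at 14 d (log2 -1.05, adjusted p = 1.2e-09). Musk, the receptor kinase that assembles the junction, fell from 99.7 to 56.2 CPM at 14 d (log2 -0.83, adjusted p = 1.04e-06). Of 10 proliferation genes tested, 7 rose and 0 fell at 7 d and 2 rose at 14 d. Aurka rose from 2.69 to 5.79 CPM at 7 d and Mcm2, a DNA replication helicase, from 5.14 to 8.50 CPM. Between 7 and 14 d 3 of these genes fell, Mcm2 among them, where 13.5% of all genes were called, or 30.5% without RL14_ML 1.

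Among 20 other satellite cell genes, 8 rose and 5 fell at 7 d, with a median of 0.06 against 0.05 for all genes, of which 52.7% were called. Met, the receptor for hepatocyte growth factor, rose from 20.9 to 25.9 CPM and Six4 from 33 to 41.1 CPM, while Sdc4 fell from 26.2 to 15.3 CPM (log2 -0.77, adjusted p = 1.46e-08). Of 10 genes of the desmin network, 4 rose and 4 fell, Vim from 44.8 to 66 CPM and Synm, a desmin-bound filament protein, from 1254 to 1039 CPM. Of 13 growth signals, 4 rose and 4 fell, Fgf6 from 5.57 to 8.28 CPM.

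Markers of other cell types rose at 7 d beside Pax7 and Myod1: 7 of 10 fibroblast, 8 of 10 endothelial, 8 of 10 macrophage, 6 of 8 adipocyte, 3 of 8 Schwann cell and 4 of 8 smooth muscle and pericyte markers, where 52.7% of all genes were called in either direction. Falls were seen for 1 macrophage marker, the scavenger receptor Cd163 (15.4 to 10.9 CPM, edgeR adjusted p = 0.00928), and 1 pericyte marker, Rgs5 (304 to 231 CPM, adjusted p = 8.19e-05). Summed marker levels over the 16 libraries ran from 340 to 615 CPM in HU and 465 to 794 CPM in RL7 for fibroblasts, and from 189 to 292 and 237 to 382 CPM for endothelium. For macrophages they ran from 36.1 to 162 and 52.9 to 241 CPM, and for adipocytes from 76 to 158 and 73.3 to 969 CPM. Schwann cell markers ran from 33.2 to 82.4 and 37.1 to 171 CPM, and smooth muscle and pericyte markers from 321 to 494 and 262 to 459 CPM. At 14 d 9 endothelial, 4 fibroblast, 4 smooth muscle and pericyte, 1 Schwann cell, 0 macrophage and 0 adipocyte markers were up against HU, and 1 macrophage marker was down. All 10 markers of fibroblasts, endothelium and macrophages were above 0 in every library. Their part in the changes of the members was not tested.

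The drinks were compared with water at the same time, the question that the study's title raises. Metformin at 14 d of reloading changed 2 of 10 members, beside 5.12% of all genes. EdgeR called 0 of 10 in the other 8 comparisons of a drink with water. In these, 0 to 2 members and 499 to 2784 of all 16668 genes had an unadjusted p under 0.05. The shares of all genes called in these comparisons were 0% (HU_M), 0.006% (HU_L), 0.048% (HU_ML), 0.138% (RL7_M), 0.078% (RL7_L), 0.006% (RL7_ML), 0.294% (RL14_L) and 0.714% (RL14_ML). Limma voom called 4 members in RL14_M, 3 each in RL14_L and RL14_ML and 1 each in RL7_M and RL7_L. Its shares of all genes were 23.4%, 8.07%, 18.1%, 2.66% and 0.864%.

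For ML against water the log2 difference of Pax7 was 0.08 during unloading (95% interval -0.50 to 0.65), 0.45 at 7 d (-0.11 to 1.01) and -0.00 at 14 d (-0.55 to 0.55). HU_ML libraries held 1.13, 1.94, 1.70 and 2.19 CPM of Pax7 against 1.65, 2.01, 1.53 and 1.43 CPM in HU_W. RL7_ML libraries held 2.21, 2.46, 2.56 and 1.65 CPM against 2.28, 1.63, 1.28 and 1.32 CPM in RL7_W. The groups overlapped at both times. At 14 d RL14_ML held 4.12, 1.84, 1.98 and 1.8 CPM, so that 1 library lay above and 3 below all 4 RL14_W libraries. As the mean of the 3 times ML differed from water by 0.17 (-0.15 to 0.50), with 0 of 10 members called by edgeR (0.036% of all genes). M and L as means of the 3 times also gave 0 calls (0.048% and 0.072% of all genes). By unadjusted p under 0.05 there were 0 members for ML, 1 for M and 2 for L, beside 955, 846 and 812 of all 16668 genes.

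At 14 d Cdh15 was 11.3, 13.9, 12.4 and 10.7 CPM in RL14_W and 7.71, 7.45, 7.01 and 4.25 CPM in RL14_M. The groups did not overlap, and Cdh15 was lower under metformin at a log2 difference of -0.87 (SE 0.20), or 1.82-fold (edgeR adjusted p = 0.0128). Myod1 was 12, 13, 12.9 and 13.7 CPM against 4.91, 8.70, 8.42 and 4.83 CPM, again without overlap, at a log2 difference of -0.94 (SE 0.28), or 1.92-fold lower (adjusted p = 0.0422). The RL14_W libraries were the tightest and highest group for Myod1.

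Pax7 and Des followed the same order without passing in edgeR. Pax7 was 2.49, 2.54, 2.35 and 2.39 CPM in RL14_W and 0.952, 1.17, 1.63 and 1.58 CPM in RL14_M, at -0.88 (-1.45 to -0.31, adjusted p = 0.0531). It passed in DESeq2 (adjusted p = 0.0334), in limma voom (0.00399) and in a fit of only these 2 groups (0.0280). Des was 1867, 1944, 2145 and 1685 CPM against 1516, 1516, 1640 and 1193 CPM, at -0.38 (-0.71 to -0.06, adjusted p = 0.136). Myf5, Myf6 and Myog differed by -0.12, -0.15 and 0.04, each with an interval that held 0.

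Of the other lists at 14 d under metformin, edgeR called 0 of 20 other satellite cell genes, with 6 at an unadjusted p under 0.05. Of all 16668 genes 3917 had such a p. Tcf3 fell from 10.5 to 6.84 CPM (log2 -0.62, adjusted p = 0.0411), Bin1 from 392 to 261 CPM and Aurka from 6.99 to 3.76 CPM. Rapsn, which anchors acetylcholine receptors at the junction, fell from 8.27 to 4.00 CPM (log2 -1.04, adjusted p = 0.0238). Of 10 endothelial markers 1 rose, Emcn, from 9.41 to 14.3 CPM with no overlap between groups (adjusted p = 0.0276), and the markers summed to between 254 and 351 CPM in RL14_W and between 253 and 372 CPM in RL14_M. Of 10 macrophage markers 1 rose, Cd163, and the markers summed to between 44.4 and 84.3 CPM in RL14_W and between 60.9 and 134 CPM in RL14_M. Of 10 fibre markers 1 rose, the fast myosin Myh1, and Pvalb and Ckm fell. Their part in the values of the members was not tested.

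The Myod1 call ended without RL14_W 1, 3, 4 or 5, or without RL14_M 1 or 6 (adjusted p up to 0.156), and without the libraries high in Alb (-0.91, adjusted p = 0.0924). The Cdh15 call ended without RL14_W 3 or 4, or without RL14_M 6 (adjusted p up to 0.0938), and the count of all genes changed ranged from 49 to 1028. 5.8S was 0.294 to 0.998 CPM in RL14_W and 11.6 to 23 CPM in RL14_M, and the mitochondrial share of counts was higher in every RL14_M library than in every RL14_W library. The part of the mitochondrial share in these values was not tested. With 5.8S ribosomal RNA as a covariate the log2 difference was 0.02 for Myod1 and -0.70 for Cdh15 (both edgeR adjusted p = 0.999). The drink and the ribosomal RNA level cannot be told apart here.

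Leucine and the combination at 14 d gave 0 calls, with the following values. Cdh15 was 7.92, 7.84, 7.44 and 7.88 CPM in RL14_L, below every RL14_W library (log2 -0.63, -1.03 to -0.24, edgeR adjusted p = 0.112), and 12, 6.83, 8.41 and 7.20 CPM in RL14_ML (-0.48, -0.88 to -0.09, adjusted p = 0.314). Without RL14_ML 1 the combination changed 3 of 10 members against water, beside 15.2% of all genes. Myod1 was then 1.10 lower (log2 -1.10, adjusted p = 0.000683), with Cdh15 at -0.67 (adjusted p = 0.0154) and Des at -0.42 (adjusted p = 0.0203). With all 4 libraries these 3 had edgeR adjusted p of 0.683, 0.314 and 0.906. RL14_ML 1 had been singled out for its high Pax7, Myod1 and Des, so its removal was bound to lower the RL14_ML means of those genes. It was the only 1 of the 8 libraries of this comparison whose removal gave a call. Leaving out RL14_ML 1 and 6 together gave 1 call. 5.8S was 9.15 to 33 CPM in these groups, again above every RL14_W library.

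**Figure D3:**
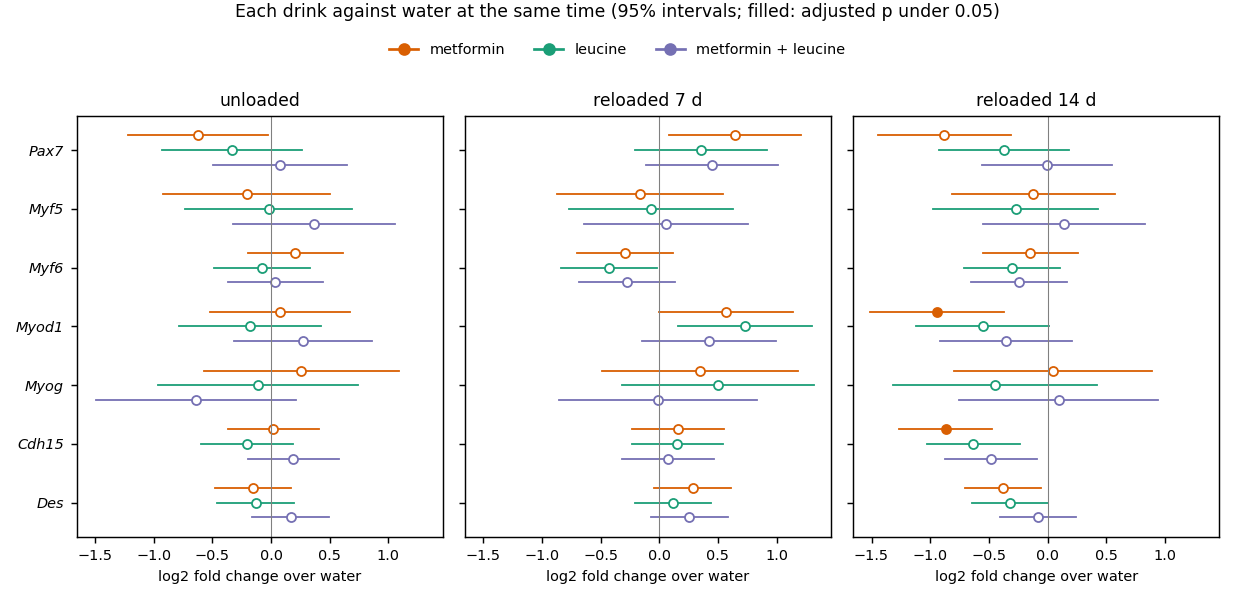
Log2 fold change (x axis) of 7 members (y axis) under metformin, leucine or both against water at the same time, with 95% intervals; filled points have an adjusted p under 0.05. Myod1 (-0.94) and Cdh15 (-0.87) under metformin at 14 d are the filled points, and the metformin point of Pax7 lies right of 0 at 7 d and left of 0 during unloading and at 14 d.

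At 7 d the metformin values lay on the other side of 0. Pax7 was 2.54, 2.83, 2.38 and 2.44 CPM in RL7_M, above every RL7_W library, at 0.65 (0.09 to 1.2, edgeR adjusted p = 0.303). Myod1 was 11.9, 12.5, 11.9 and 7.63 CPM in RL7_M and 8.73, 9.09, 5.21 and 6.63 CPM in RL7_W, at 0.57 (adjusted p = 0.365). A single test over all drinks and times (6 interaction terms) in edgeR called 0 of 10 members, against 0.93% of all genes. By unadjusted p under 0.05 there were 3 members, beside 2741 of all 16668 genes. Without RL14_ML 1 the test called 4 members, against 15.7% of all genes: Pax7, Myod1, Cdh15 and Des. RL14_ML 1 was the only 1 of 48 libraries whose removal gave a call. It had been singled out for its high Pax7, Myod1 and Des, so the calls without it are not independent of that choice. Limma voom called the same 4 with all libraries, against 22.7% of all genes.

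After these values had been seen, the effect of each drink at one time was set against its effect at another, 9 differences in all. The metformin effect at 14 d minus that at 7 d differed for 4 of 10 members, beside 14.5% of all genes. It was -1.52 ± 0.39 for Pax7 (edgeR adjusted p = 0.011), -1.51 ± 0.40 for Myod1 (0.0128), -1.03 ± 0.28 for Cdh15 (0.0131) and -0.66 ± 0.23 for Des (0.042). The other 8 differences gave 0 calls in edgeR. By unadjusted p under 0.05 they gave 0 to 2 members, beside 466 to 3427 of all 16668 genes. Their background shares were 0.024% (M, 14 d minus unloading), 0.03% (M, 7 d minus unloading), 1.08%, 0.006% and 0.066% (L, 14 d minus 7 d, 14 d minus unloading and 7 d minus unloading), and 1.93%, 0.96% and 0.012% (ML, in that order). Without RL14_ML 1 the ML differences of 14 d minus 7 d and 14 d minus unloading called 3 members each, beside 20.3% and 15.5% of all genes. In each, RL14_ML 1 was the only 1 of 16 libraries whose removal gave a call. That library had been singled out by its Pax7, Myod1 and Des values, so these calls are not independent of the choice. The groups that make up the metformin difference of 14 d minus 7 d also differ in 5.8S. It was 2.91 to 7.39 CPM in RL7_W and 0.379 to 1.63 CPM in RL7_M, the reverse of the order at 14 d. The mitochondrial share of counts was likewise lower in every RL7_M than in every RL7_W library, the reverse of 14 d. With 5.8S ribosomal RNA as a covariate the 4 values were -0.67, -0.05, -0.78 and -0.40, and 0 passed. The part of the mitochondrial share was not tested. The Des call ended without any 1 of 14 of the 16 libraries.

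**Figure D4:**
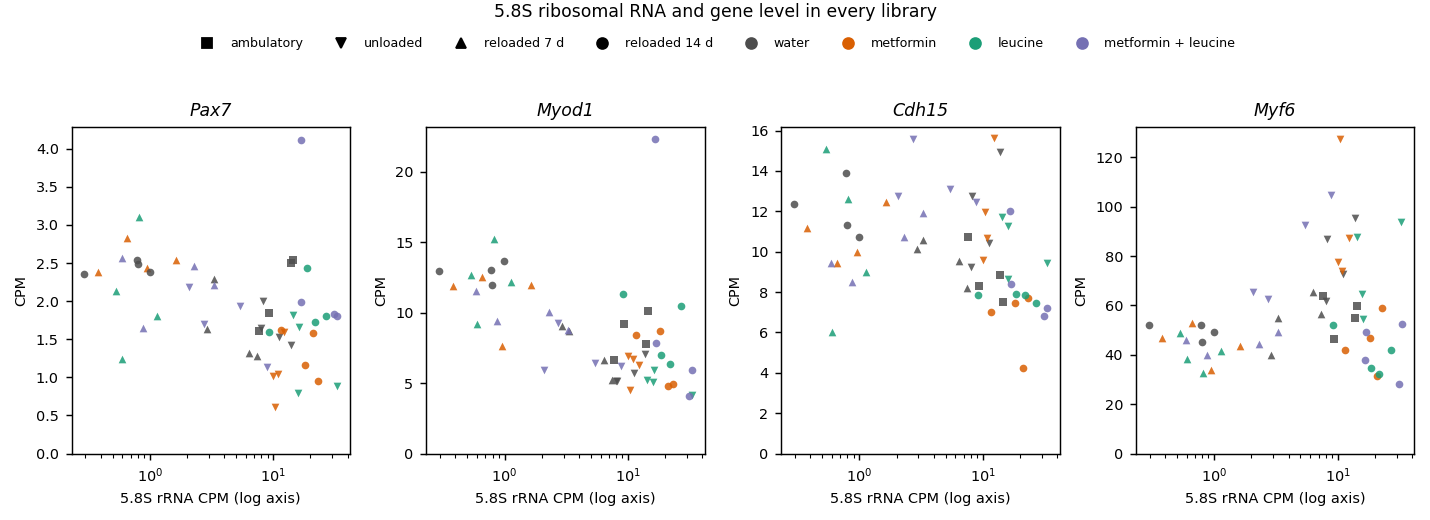
5.8S ribosomal RNA in CPM (x axis, log scale) against the level of Pax7, Myod1, Cdh15 and Myf6 in CPM (y axis, linear, from 0) in each library, with shape for time and colour for drink. The RL14_W circles sit at the left, between 0.294 and 0.998 CPM, and the circles of the 3 treated RL14 groups at the right, between 9.15 and 33 CPM.

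Whether the combination did more or less than the sum of its parts was asked with the metformin by leucine interaction at each time. At 14 d 1 of 10 members passed, beside 3% of all genes. Cdh15 had an interaction of 1.02 ± 0.28 (edgeR adjusted p = 0.0424), that is, on the log2 scale RL14_ML lay above the sum of the single-drink differences. Pax7 stood at 1.25 (0.45 to 2.04, adjusted p = 0.0623) and Myod1 at 1.14 (0.33 to 1.95, adjusted p = 0.0894). Without RL14_ML 1 the Cdh15 value was 0.78 (adjusted p = 0.383), and leaving out any 1 of 9 of the 16 libraries ended the call. With the 5.8S covariate it was 0.86 (adjusted p = 1.00). During unloading (0% of all genes) and at 7 d (0.102%) edgeR called 0 members for the interaction, with 1 each at an unadjusted p under 0.05. Of all 16668 genes 1199 and 1402 had such a p.

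The combination was also set against each single drink. EdgeR called 0 of 10 members in all 6 comparisons. By unadjusted p under 0.05 there were 0 to 2 members, beside 576 to 1820 of all 16668 genes. The shares of all genes called were 0.15% and 0.096% against M and L during unloading, 0% and 0% at 7 d, and 0.024% and 0% at 14 d. Pax7 in RL14_ML lay above every RL14_M library, at 0.88 (0.31 to 1.45, edgeR adjusted p = 0.321). During unloading it was 1.04, 1.02, 0.610 and 1.6 CPM in HU_M, the lowest group mean of the 13 at 1.07 ± 0.406 CPM, and HU_ML exceeded HU_M by 0.70 (0.11 to 1.29, adjusted p = 0.385). These groups overlapped.

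The order of the group means shows how close most groups lie. For Pax7 it ran from 1.07 ± 0.406 CPM in HU_M, 1.29 ± 0.527 in HU_L and 1.33 ± 0.326 in RL14_M up to 2.43 ± 1.12 in RL14_ML, 2.44 ± 0.0881 in RL14_W and 2.55 ± 0.201 in RL7_M. Neighbours in that order differed by less than the larger of their SDs. Myod1 ran from 5.10 ± 0.736 CPM in HU_L to 12.3 ± 2.47 in RL7_L and 12.9 ± 0.690 in RL14_W, and all 4 HU groups lay among the lowest 5. Myf6 ran from 40.2 ± 9.02 CPM in RL14_L to 91.6 ± 24.6 in HU_M, and its 4 highest means were the 4 HU groups. Cdh15 ran from 6.61 ± 1.6 CPM in RL14_M to 13.5 ± 1.42 in HU_ML, and Des, the flattest member, from 1466 ± 191 CPM in RL14_M to 1919.5 ± 96.9 in RL7_M, a ratio of 1.31.

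Neither the early factor Myf5 nor the differentiation factor Myog passed in any of the comparisons above in edgeR. Myf5 group means ran from 0.809 ± 0.423 CPM in RL7_M to 1.27 ± 0.354 in HU_ML, on 9 to 43 reads per library. Myog group means ran from 1.28 ± 0.374 CPM in RL14_L to 2.62 ± 1.39 in RL7_L, where RL7_L 5 held 4.70 CPM and the other 3 libraries 1.81 to 2.07. Single libraries also lifted Myog in RL14_M (4.29 CPM in RL14_M 2, against 0.908 to 1) and in AMB_W (2.7 CPM in AMB_W 3, against 0.923 to 1.14).

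Pax3 and Calcr, the scarcest members per kilobase of exon, were not resolved at this depth. Pax3 group means ran from 0.171 ± 0.116 CPM in RL7_M to 0.441 ± 0.542 in RL14_M, where RL14_M 5 alone held 1.23 CPM. Calcr group means ran from 0.158 ± 0.152 CPM in RL7_M to 0.490 ± 0.195 in RL14_ML. The interval of a log2 difference between HU and AMB_W over the 4 drinks was -1.71 to 1.26 for Pax3 and -1.69 to 0.51 for Calcr.

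Mymk, the fusion protein, was listed at 0 in all 4 RL14_W libraries and in 10 of the 16 RL14 libraries, against 4 of 16 in HU and 2 of 16 in RL7. RL7_W held 0.305, 0.868, 0.213 and 0.0470 CPM. Against a floor of 3 counts over the RL14_W group (0.0372 CPM), the mean of RL7_W was 9.61 times and that of HU_W 4.47 times the floor. These ratios leave out the spread of the RL7_W and HU_W libraries, so they are not lower bounds. The RL7_W ratio rests in large part on RL7_W 2, and without that library it was 5.05. The comparison of RL14_W with RL7_W did not pass in edgeR, and no library held more than 25 Mymk reads.

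Over the 52 libraries some members varied together, which is described here without a test because the libraries share groups, depth and ribosomal RNA level. Pax7 and Myod1 had a Pearson correlation of log2 CPM of 0.68 over 52 libraries and of 0.51 within groups. Myod1 and Des had 0.65 and 0.65, and Cdh15 and Des 0.60 and 0.69. Myf6 ran against Pax7 at -0.51, and at -0.31 within groups.

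By the same measure the genes nearest to Myf6 were Trim63 (0.89), a ubiquitin ligase of muscle atrophy, Jun (0.88), an early response factor, and Dapk2 (0.87). Those nearest to Myod1 were Rhobtb2 (0.88), Cers1 (0.87) and Arhgef10l (0.86), and those nearest to Pax7 were Sema6c (0.75), Mrtfa (0.75) and Fam20c (0.74). Cdh15 was nearest to Camk2b (0.81), Eif3f (0.78) and Dusp13 (0.77), and Des to Rnf10 (0.89), Npepl1 (0.89) and Bag6 (0.88). The scarcer members reached lower values: Myog was nearest to Lgals3 (0.55), Mymk to Lgals3 (0.63) and Gpnmb (0.60), Pax3 to Terf2 (0.63), Calcr to Acad8 (0.58) and Myf5 to Kif13a (0.51).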

How the data were processed

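Gene-level reads were used as deposited, as raw counts that the authors had not scaled. STAR 2.7.3a, featureCounts 1.6.3, DESeq2 1.30.0 and GRCm38 are named in the submitters' processing notes, and the annotation release is not given in the sources used here. Of 55487 identifiers, 55227 matched GENCODE vM21. Genes that passed filterByExpr (minimum count 10) entered a robust quasi-likelihood fit in edgeR 4.0.16 (R 4.3.3) of 13 group means over 52 libraries, TMM-scaled, which left 39 degrees of freedom. Benjamini-Hochberg adjustment ran over all 16668 tested genes, and changed means an adjusted p under 0.05. The SE is the log2 difference over the root of F. Limma 3.58.1 (voom) and DESeq2 1.42.0 were alternatives. No label says that each library is a separate mouse, so p-values measure only the spread between libraries, which may be technical. Replicates of a group differed by more than sampling noise. The scripts were tested on simulated data. Named list genes are up to 2 rising and 2 falling called genes of smallest p, some omitted, and the genes named as nearest to a member are among its 3 of highest correlation. The 10 genes and the lists were chosen with earlier results of these data known.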

Additional observations from a re-analysis of the deposited data

Results flagged for a closer look

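Within a group of 4, a library was singled out by Dixon's test, which reads the gap to the nearest other library against the range of the group. This held for 13 of 130 combinations of gene and group, where chance gives about 1 in 20, or 6.5. Pax7 was 4.12 CPM in RL14_ML 1 against 1.8 to 1.98 CPM in the other 3 libraries. Myf5 was 1.03 CPM in RL14_L 4 against 0.775 to 0.792 CPM. Myod1 was 9.28 CPM in HU_ML 5 against 5.97 to 6.46 CPM, and 7.63 CPM in RL7_M 4 against 11.9 to 12.5 CPM. Myog gave 5 of the 13, all of them high: AMB_W 3 held 2.7 CPM, RL7_L 5 held 4.70 CPM, RL14_M 2 held 4.29 CPM, RL14_L 2 held 1.84 CPM and RL14_ML 4 held 2.46 CPM. Cdh15 was 7.44 CPM in RL14_L 4 against 7.84 to 7.92 CPM, a narrow group. Des was 2298 CPM in RL7_ML 1 against 1712 to 1800 CPM. Mymk was 0.351 CPM in AMB_W 3 against 0.0520 to 0.0577 CPM, and 0.925 CPM in RL7_L 5 against 0.0427 to 0.123 CPM. AMB_W 3 and RL7_L 5 are thus high for both Myog and Mymk.

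Effects that differed between groups by their own test were the metformin by leucine interaction of Cdh15 at 14 d (1.02) and the metformin effect at 14 d minus that at 7 d. The latter was -1.52 for Pax7, -1.51 for Myod1, -1.03 for Cdh15 and -0.66 for Des, and it was added after the values by time had been seen.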

How the results depend on the processing

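Counts of the 10 members that changed are given first as the main value and then under the alternative. The number of all genes called also moved with the settings for some comparisons. These counts therefore describe the settings and are not results about the members. With RLE size factors the metformin by leucine interaction at 14 d went from 1 to 0. Without a filter on low counts it went from 1 to 0, unloading against AMB_W over the 4 drinks from 1 to 0, RL14_W against HU_W from 2 to 1 and RL14_M against RL14_W from 2 to 1. With the replicate block RL14_M against RL14_W went from 2 to 1 and the interaction at 14 d from 1 to 0; same-numbered libraries had a mean correlation of 0.0107 against -0.00225 for others, and 10 of 52 correlated best with their own number, so the numbers do not pair the libraries. With 5.8S ribosomal RNA as a covariate there were 0 calls for RL14_W against HU_W, RL14_M against RL14_W, RL7 against HU, the interaction at 14 d and the metformin effect at 14 d minus 7 d (main 4), and Myod1 in RL14_M against RL14_W turned from -0.94 to 0.025. Without the 12 libraries high in Alb these were 0, 1, 3, 0 and 2, and unloading gave 0.

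Without RL14_ML 1 and 6, which stood apart in an earlier analysis of these data, RL14_W against RL7_W gave 1, RL14_M, RL14_L and RL14_ML against RL14_W 4, 1 and 1, RL14 against RL7 1, unloading 2, the interaction at 14 d 0, the drink by time test 3, and the 14 d minus 7 d effects of L and ML 2 and 3, with 1 for ML at 14 d minus unloading. Fitting only the groups compared gave 1 for HU_W and 3 for RL14_W against AMB_W, 1 for RL14_W against RL7_W, 1 for RL14_L against RL14_W, 2 for unloading, 0 for the interaction and 1 for L at 14 d minus 7 d. Limma voom gave 1 and 3 for HU_W and RL14_W against AMB_W, 1 for RL7_W against HU_W, 2 for RL14_W against RL7_W, 1 each for RL7_M and RL7_L, 4, 3 and 3 for RL14_M, RL14_L and RL14_ML, 5 for RL7 against HU, 2 for RL14 against RL7, 4 for unloading, 2 for M at 14 d minus unloading, 1 and 3 for L and ML at 14 d minus 7 d, 3 for ML at 14 d minus unloading and 4 for the drink by time test. DESeq2 gave 2 for the interaction and 1 for L at 14 d minus 7 d. The cause of these moves was not tested.

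Leaving out 1 library at a time gave 0 to 1 for unloading, 1 to 2 for RL14_W against HU_W, 0 to 4 for RL14 against RL7, 0 to 2 for RL14_M and 0 to 3 for RL14_ML against RL14_W, 0 to 4 for the interaction at 14 d, 0 to 1 for L and 0 to 3 for ML at 14 d minus 7 d, 0 to 3 for ML at 14 d minus unloading and 0 to 4 for the drink by time test. The genes called among all tested then ran from 553 to 1079 for unloading and from 581 to 1743 for RL14_W against HU_W. They ran from 49 to 1028 for RL14_M against RL14_W and from 4 to 1826 for the interaction at 14 d. Genes changed among all tested went, for RL14_W against HU_W, from 1620 to 24 with the 5.8S covariate and 4467 with limma voom, and for RL14_M against RL14_W from 853 to 0 and 3896. For RL7 against HU they went from 8788 to 474 with the covariate. Over all alternatives the median of all genes moved by at most 0.047 (log2). Depth limits Pax3, Calcr and Mymk most, at 0 to 25 reads per library.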
